A study of Arabidopsis thaliana with 21 samples.

Results

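Class III peroxidases are the secreted heme peroxidases of plants, and 60 genes listed under this family name were followed through the passage from dry seed to seedling in Arabidopsis thaliana. Members were found by their locus identifiers, and the list was chosen with earlier results of these data known. Of the 60 listed genes, 58 had a probe set and were measured, out of 27789 loci in the table. The other 2, AT1G05240 and AT1G05250, were not analysed here.

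Class III peroxidases reduce hydrogen peroxide while oxidising phenolic compounds in the cell wall, and this activity cross-links wall polymers and polymerises lignin. In another reaction cycle the same enzymes can produce reactive oxygen species that loosen the wall, so the family is known both for stiffening walls and for letting cells expand. In germinating seeds and young roots they act in the seed coat, in growing root hairs, in the lignified Casparian strip of the endodermis and in the xylem.

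All 21 arrays came from the cultivar Col-0, with 3 biological replicates at each of 7 stages, and each replicate was grown from seed pooled over 3 to 4 plants. The stages were mature dry seeds (DS), seeds imbibed for 6 h (6H), testa rupture (TR), radicle protrusion (RP), the root hair stage (RH), green cotyledons (GC) and opened cotyledons (OC). The growth protocol gives cold stratification for 72 h at 4 °C on moist filter paper and then constant white light at 22 °C, and the labels do not say whether the 6 h of imbibition include the cold. For every stage 3000 individuals were picked under a stereomicroscope, whole seeds or seedlings were extracted, and labelled cDNA was made from 50 ng of RNA. No mutant, hormone or other treatment was part of the series, so the labels tell the 7 groups apart by stage only. Stage and time spent in water, cold and light under the growth protocol cannot be told apart. The stages up to RH are labelled as seeds while GC and OC are labelled as seedlings.

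Values are log2 expression levels, in which 1 unit is a 2-fold difference, and a level is compared only with levels of the same gene because probe sets respond differently to their targets. A gene was called up or down between consecutive stages when limma's adjusted p was under 0.05 over all 27789 loci and the log2 change was at least 1. The 30th percentile of all array values, 3.47, served as a floor below which a level was treated as dim. Across loci, replicates of a stage correlated with r between 0.981 and 0.995. The seed maturation and root hair markers moved with the labels, whereas the summed seed coat level was higher at OC than in DS. The summed level of 4 seed maturation genes lay between 13.30 and 13.40 in DS and between 7.90 and 8.27 at TR, and that of 6 root hair genes went from 6.52 to 6.85 at RP to 10.01 to 10.14 at RH. Replicate 2 of the dry seeds stood apart for some members: it was the highest of the 3 dry seed arrays for 35 of the 58 genes, and it exceeded both others by at least 1 for AT5G64100 and AT5G64120. Over all loci this excess occurred for 0.928% in replicate 2, against 0.018% in replicate 1 and 0.0396% in replicate 3.

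Most of the measured peroxidase genes had their highest mean in the seedling stages, GC or OC. Over the 7 stages 51 of the 58 genes changed, which here means an adjusted p under 0.05 in limma's F test and at least 1 log2 unit between the lowest and the highest stage mean. Of all loci 66.4% did. Of these 51 genes, 36 were highest at OC and 10 at GC, 2 each at TR and RH, 1 at DS, and none at 6H or RP. GC and OC together held the highest mean of 90.2% of them, and of 5545 of the 18463 loci that passed. These counts depend on the scale. With arrays centred on reference genes 58 genes changed, 33 of them highest at OC, 7 at GC and 10 at DS. With arrays centred on the median of all genes 54 changed, with 35 highest at OC, 9 at GC and 4 at DS. The range of stage means within a gene had a median of 3.75 over the 58 peroxidases and of 1.47 over all loci. Whole seeds and seedlings were measured, so fewer cells of a type and less RNA per cell cannot be told apart.

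The number of peroxidase genes whose mean reached the floor went from 28 in DS to 10 at 6H, and then to 18 at TR, 25 at RP, 37 at RH, 44 at GC and 50 at OC. As shares of the 58 genes these were 48.3%, 17.2%, 31%, 43.1%, 63.8%, 75.9% and 86.2%, and of all loci 72.3%, 64.3%, 67%, 68.6%, 70%, 72% and 73.4% reached it. The median level over the 58 genes was 3.48 ± 0.23 (SD, n = 3) in DS and 2.89 ± 0.08 at 6H. It was 4.48 ± 0.22 at RH and 7.11 ± 0.10 at OC. In all, 48 genes rose in at least 1 step, 23 of them in 1 step, 16 in 2, 8 in 3 and only AT3G21770 in 4. Of all loci 29.8% rose in at least 1 step, 22.5% in 1, 5.96% in 2, 1.22% in 3 and 0.0864% in 4. There were 83 called rises and 10 called falls, and 33 of the rises started below the floor. The share of such rises over all loci is not given here. The largest called rise of a gene fell in the step from GC to OC for 17 genes, in those from 6H to TR and from RP to RH for 10 genes each, in that from RH to GC for 5, and in those from DS to 6H and from TR to RP for 3 each. The matching counts over all loci are not given here, so this timing is a description of the peroxidases alone.

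**Figure D1:**
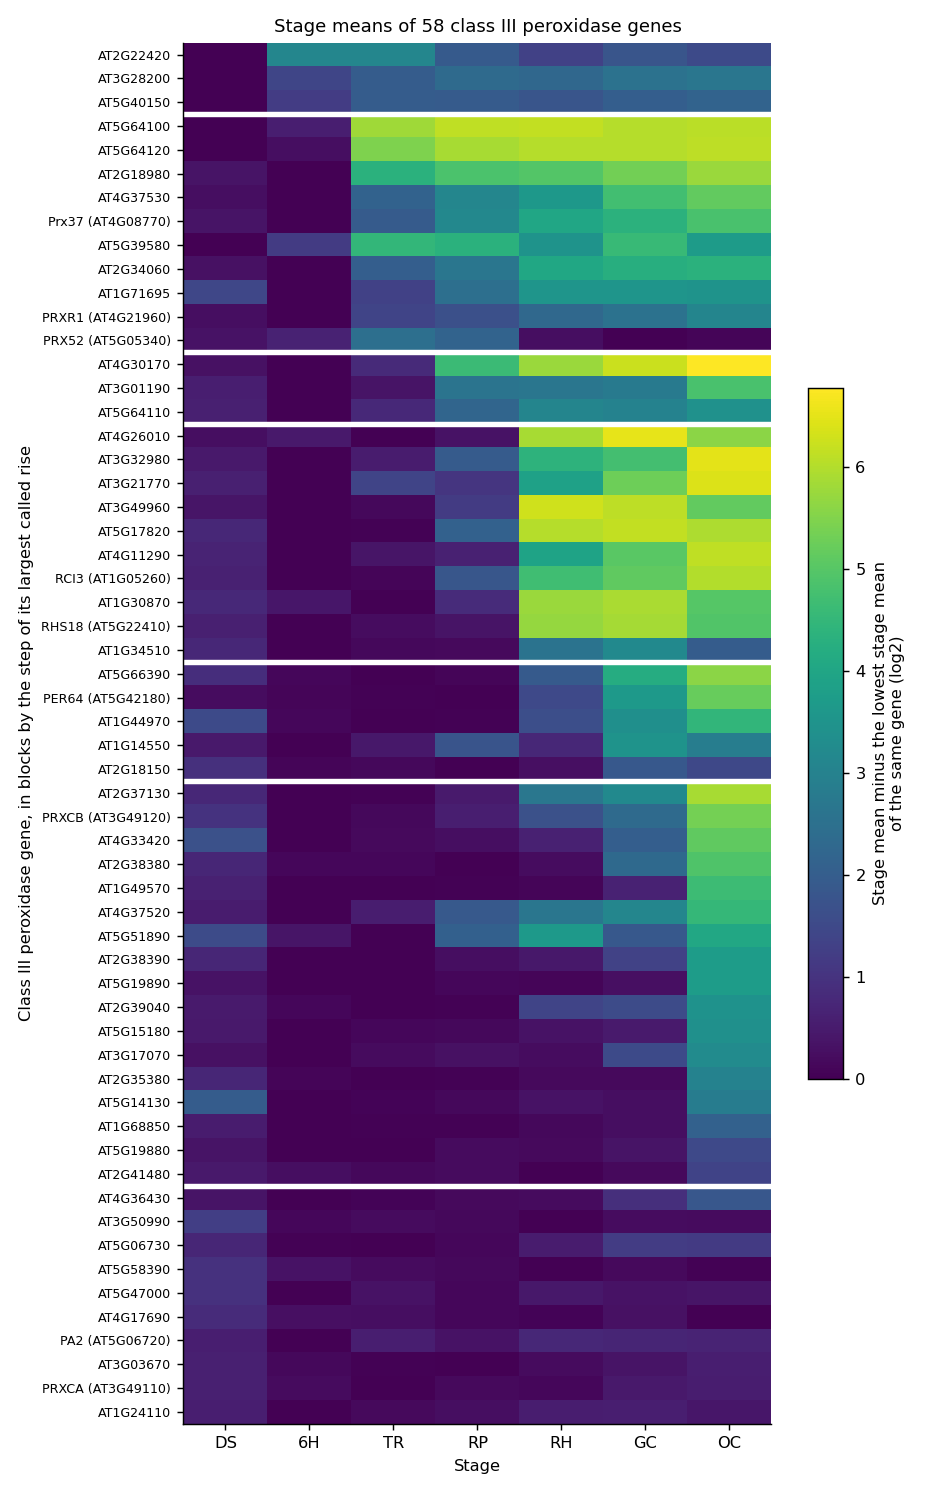
Stage means of the 58 measured class III peroxidase genes (rows) at the 7 stages (columns), drawn as the log2 difference from the lowest stage mean of the same gene. White lines separate blocks of genes whose largest called rise came in the step from DS to 6H, 6H to TR, TR to RP, RP to RH, RH to GC or GC to OC, from top to bottom. The last block holds the 10 genes with no called rise, and the largest range is 6.77, for AT4G30170.

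**Figure D2:**
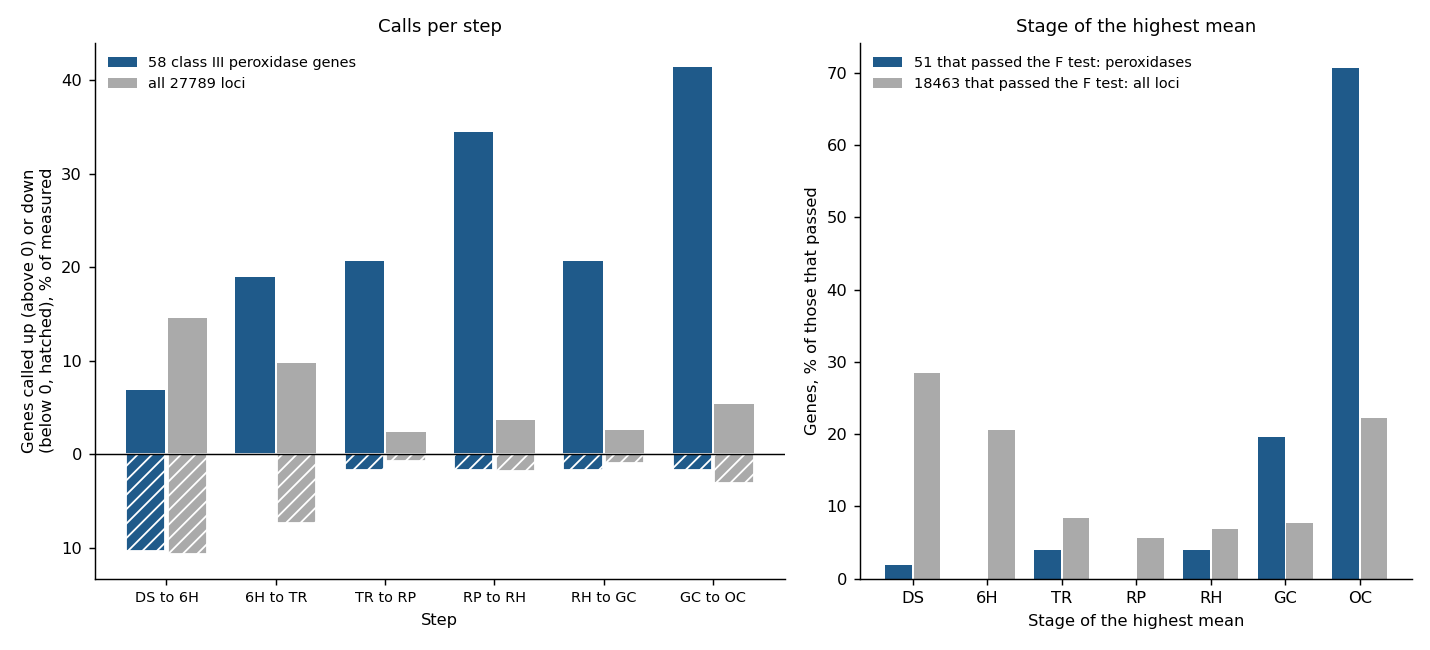
Left, the percent of the 58 peroxidase genes (blue) and of all 27789 loci (grey) called up (above 0) or down (below 0, hatched) in each step. Right, the stage of the highest mean for the 51 peroxidase genes and the 18463 loci that passed the F test, in percent. From 6H to TR onward the share called up is larger among the peroxidases in each step.

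Imbibition for 6 h was the step in which the fewest peroxidase genes rose. The most peroxidase genes fell in it, and so did the most of all loci. From DS to 6H, 4 of 58 genes (6.9%) were called up, against 14.6% of all loci. The share called down was close to that of all loci, with 6 genes (10.3%) against 10.7%. These shares depend on the scale: when arrays were centred on the median of all genes, 2 genes were called up and 18 down, and when centred on reference genes, 2 up and 13 down. The median change was −0.51 over the peroxidases and −0.23 over all loci.

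The rise of AT2G22420 was the largest of this step. Its dry seed values of 3.46, 4.61 and 3.90 were followed by 7.29, 7.18 and 6.84 at 6H and by 7.08, 7.01 and 7.25 at TR. It then read 6.05, 5.87 and 5.85 at RP, 5.14, 5.28 and 5.52 at RH, 5.88, 5.80 and 5.64 at GC and 5.68, 5.63 and 5.22 at OC. It was thus highest in imbibed and testa-ruptured seeds, whose values overlapped, and no later array reached them. Its change was 3.11 ± 0.21 (SE) from DS to 6H with an adjusted p of 9.8e-11 (limma, n = 3 arrays per stage), and −1.19 ± 0.21 from TR to RP with an adjusted p of 0.00044.

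Smaller rises at 6H belonged to genes that stayed on afterwards. AT3G28200 rose by 1.41 ± 0.16 (adjusted p = 2.1e-07, limma) and had stage means between 7.92 and 8.63 from TR onward. AT5G40150 changed by 1.21 ± 0.21 (adjusted p = 5.4e-05) and AT5G39580 by 1.16 ± 0.18 (adjusted p = 1.2e-05). With arrays centred on all genes or on reference genes neither reached 1: AT5G40150 came to 0.84 and 0.97, and AT5G39580 to 0.80 and 0.92. AT5G39580 came to 0.70 after a further quantile normalization, to 0.98 without DS replicate 1 and to 0.97 without 6H replicate 1.

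The falls at 6H were of transcripts present in the dry seed. AT5G14130 fell by 1.97 ± 0.18 (adjusted p = 1.2e-08), AT4G33420 fell by 1.67 ± 0.13 (adjusted p = 6.1e-10), AT1G71695 fell by 1.44 ± 0.12 (adjusted p = 1.5e-09) and AT1G44970 fell by 1.41 ± 0.17 (adjusted p = 6e-07). All 4 rose again in a later step. AT5G14130 read 4.92 ± 0.20 (SD, n = 3) in DS, between 2.95 and 3.27 as stage means from 6H to GC, and 5.79 ± 0.29 at OC.

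AT3G50990 was the only gene that passed the F test with its highest mean in dry seeds, a count that came to 10 genes when arrays were centred on reference genes. It came to 3 without DS replicate 1, and to 2 without DS replicate 2, 6H replicate 3 or OC replicate 2. The annotation gives it the synonym PER36, a peroxidase known for loosening the outer wall of seed coat epidermal cells so that mucilage can be released. Its values were 4.31, 3.84 and 4.14 in DS. They were 2.83, 3.10 and 3.02 at 6H, 3.02, 3.01 and 3.09 at TR, 3.10, 3.28 and 2.63 at RP, 2.52, 3.06 and 2.98 at RH, 3.22, 2.91 and 3.07 at GC, and 2.94, 3.24 and 2.98 at OC. Every dry seed value lay above every later one, and all later ones lay below the floor. The change to 6H was −1.12 ± 0.17 (adjusted p = 7.9e-06, limma). AT2G47670, with the synonym PMEI6, a pectin methylesterase inhibitor that also acts in mucilage release, had a mean of 5.53 in DS and fell by 1.63 ± 0.18 in the same step (adjusted p = 1.6e-07). Of the 6 seed coat markers, BAN was below the floor from 6H onward and TT10 below it up to RH. Others went the opposite way: MUM2 was called up from 6H to TR, from a mean of 3.64 to 6.62, and MUM4 had 5.69 in DS and 7.24 at OC. The summed level of the 6 lay between 7.07 and 7.25 in DS, between 6.87 and 7.15 at 6H and between 8.19 and 8.35 at OC, and the part of seed coat cells in the fall of AT3G50990 was not tested.

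At testa rupture peroxidase genes were called in the upward direction only. From 6H to TR 11 of 58 peroxidase genes were called up, against 9.8% of all loci. None was called down, against 7.34%, while limma's unadjusted p under 0.05 gave 1 gene with a lower mean. The median change was 0.13 over the peroxidases and 0.01 over all loci, and −0.28 and −0.40 when arrays were centred on reference genes.

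AT5G64100 and AT5G64120 rose most and reached levels that later stages kept. AT5G64120 carries the synonym PRX71, a peroxidase known to restrict cell growth when the wall is disturbed. AT5G64100 read 2.91, 6.03 and 3.04 in DS, 4.66, 4.60 and 4.43 at 6H, and 9.78, 9.68 and 9.89 at TR. It then read 10.08, 10.06 and 10.17 at RP, 10.07, 10.12 and 10.23 at RH, 10.00, 10.02 and 10.02 at GC, and 10.15, 10.15 and 9.83 at OC. Its 6H and TR values were far apart, and its values from RP to OC overlapped. The change from 6H to TR was 5.22 ± 0.48 (adjusted p = 1.8e-08, limma).

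AT5G64120 read 3.41, 5.41 and 3.60 in DS, 4.32, 4.74 and 4.12 at 6H, and 9.56, 9.56 and 9.72 at TR. Its means were 10.02 ± 0.03 (SD, n = 3) at RP and 10.24 ± 0.17 at OC. The step to TR measured 5.22 ± 0.32 with an adjusted p of 5.7e-11. In both genes dry seed replicate 2 was at least 1 above the other 2 dry seed arrays, and it enters no value of this step other than the shared estimate of the spread. Between them in the TAIR10.1 gene table lies AT5G64110. That gene did not pass the call at TR, with means of 2.33 at 6H and 3.10 at TR, and rose by 1.43 ± 0.25 from TR to RP (adjusted p = 0.00038).

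AT2G18980 rose by 4.33 ± 0.13 from 6H to TR (adjusted p = 5.2e-15), from a mean of 3.18 to 7.51, and its means then went no lower than 8.02. AT5G39580 rose by 3.31 ± 0.18 (adjusted p = 1.1e-11), from 6.10 to 9.41. Its means between RP and OC lay from 8.40 to 9.50. Neither gene had a called fall in a later step.

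The other 7 rises at TR ranged from 1.32 to 2.12. They belonged to AT4G37530, AT2G34060, Prx37 (AT4G08770), PRX52 (AT5G05340), AT3G21770, PRXR1 (AT4G21960) and AT1G71695. With reference centring 8 of the 58 genes were called up in this step, and the changes of AT1G71695, AT3G21770 and PRXR1 then came to 0.90, 0.98 and 0.96. PRXR1 went from 7.10 ± 0.14 (SD, n = 3) at 6H to 8.48 ± 0.08 at TR and reached 10.17 ± 0.03 at OC.

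PRX52, known from its part in lignin formation in stem fibres, was the one gene with a called rise to TR and a called fall before GC. It read 3.56, 4.06 and 3.87 in DS, 3.72, 4.66 and 4.11 at 6H, 5.80, 6.00 and 6.14 at TR, and 5.96, 5.26 and 5.77 at RP. It returned to 3.36, 3.82 and 4.11 at RH, 3.61, 3.69 and 3.24 at GC, and 3.28, 4.01 and 3.54 at OC. The TR and RP values overlapped each other and lay above all 15 other arrays. The rise to TR was 1.81 ± 0.24 (adjusted p = 3.3e-06) and the fall from RP to RH was −1.90 ± 0.24 (adjusted p = 7.7e-06). PRX52 and AT2G22420 were the 2 genes with their highest mean at TR.

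At radicle protrusion 12 of 58 genes were called up, against 2.34% of all loci, and 1, AT2G22420, was called down, against 0.766%. AT4G30170 rose most, and its range of 6.77 was the largest of the 58 genes. Its values were 2.95, 3.27 and 2.99 in DS, 2.60, 2.90 and 2.77 at 6H, 3.45, 3.79 and 3.46 at TR, and 7.16, 7.46 and 7.51 at RP. They went on to 8.61, 8.45 and 8.48 at RH, 8.99, 9.07 and 8.87 at GC, and 9.65, 9.68 and 9.26 at OC. From TR onward no 2 stages overlapped, and each stage was higher than the one before. The change from TR to RP was 3.81 ± 0.14 (adjusted p = 5.5e-13, limma), and the rise from RP to RH of 1.14 ± 0.14 was also called (adjusted p = 4.1e-06).

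AT3G01190 rose by 2.24 ± 0.17 from TR to RP (adjusted p = 2.3e-08), stayed between 5.39 and 5.58 as a stage mean up to GC, and rose by 2.03 ± 0.17 from GC to OC (adjusted p = 1.6e-08). AT5G51890 rose by 2.08 ± 0.24 (adjusted p = 5.5e-06) and AT5G17820 by 2.05 ± 0.17 (adjusted p = 6.5e-08). The other 8 called rises ranged from 1.04 to 1.73. The smallest, of AT3G49960, came to 0.77 without RP replicate 1. The first called rise of a gene fell in this step for 10 genes, among them RCI3 (AT1G05260), named for its induction by cold, which went from 3.35 to 5.07. First rises over all loci were not counted by step.

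**Figure D3:**
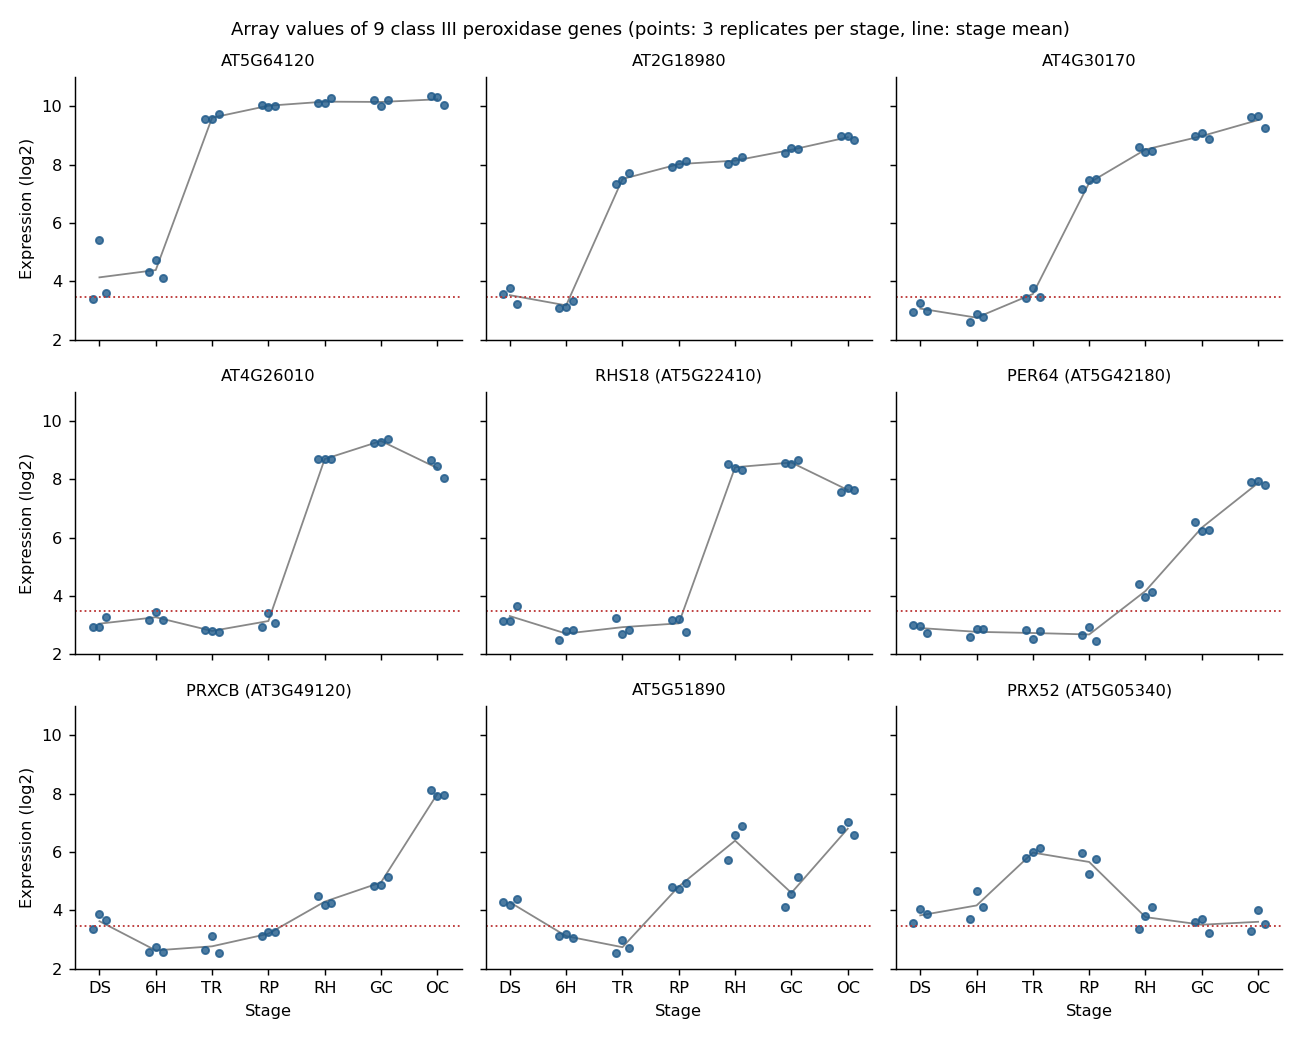
Log2 expression of 9 peroxidase genes on every array, with 3 points per stage for the replicates and a line through the stage means. The dotted line is the floor of 3.47. AT5G64120 and AT2G18980 go up at TR, AT4G30170 at RP, AT4G26010 and RHS18 at RH, PER64 at RH and GC, and PRXCB mainly at OC. AT5G51890 dips at GC, and PRX52 is high at TR and RP only.

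From RP to RH 20 of 58 genes were called up, against 3.65% of all loci, and 1, PRX52, was called down, against 1.74%. Among the genes with their highest mean at RH or GC were 5 that rose by between 3.91 and 5.56 in this step, one of them RHS18 (AT5G22410), named as root hair specific.

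AT4G26010 read 2.93, 2.93 and 3.29 in DS, 3.18, 3.45 and 3.16 at 6H, 2.82, 2.80 and 2.77 at TR, and 2.93, 3.42 and 3.06 at RP. It then read 8.70, 8.70 and 8.68 at RH, 9.25, 9.28 and 9.39 at GC, and 8.65, 8.46 and 8.04 at OC. All 12 arrays before RH were below the floor, and the RH values were far above them. The change was 5.56 ± 0.15 (adjusted p = 1.2e-15).

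RHS18 read 3.15, 3.15 and 3.64 in DS, 2.50, 2.80 and 2.83 at 6H, 3.26, 2.69 and 2.84 at TR, and 3.18, 3.22 and 2.77 at RP. It reached 8.51, 8.40 and 8.33 at RH, 8.54, 8.52 and 8.65 at GC, and 7.55, 7.71 and 7.64 at OC. The rise to RH was 5.36 ± 0.16 (adjusted p = 4.7e-15), and each OC value lay below each RH and GC value.

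AT3G49960 read 3.09, 3.60 and 3.16 in DS, 2.89, 2.86 and 2.95 at 6H, 3.18, 2.94 and 3.01 at TR, and 4.61, 4.01 and 3.62 at RP. All 3 RH arrays gave 9.19, followed by 8.84, 9.06 and 9.08 at GC and 8.05, 8.13 and 7.97 at OC. It rose by 5.11 ± 0.18 (adjusted p = 3.7e-14) and was, with AT5G64100, one of 2 genes that passed the F test with their highest mean at RH.

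AT1G30870 read 3.57, 3.08 and 3.45 in DS, 2.95, 2.84 and 3.18 at 6H, 2.49, 2.50 and 2.78 at TR, and 3.77, 3.52 and 3.0 at RP. It reached 8.36, 8.25 and 8.39 at RH, 8.35, 8.61 and 8.57 at GC, and 7.92, 7.71 and 7.10 at OC. It rose by 4.90 ± 0.20 (adjusted p = 4.3e-13), and its RH and GC values overlapped.

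AT5G17820 rose in both steps, first to RP and then to RH. It read 3.39, 3.37 and 3.78 in DS, 2.78, 2.66 and 2.80 at 6H, 3.22, 2.61 and 2.58 at TR, and 5.03, 4.69 and 4.83 at RP. It then read 8.72, 8.73 and 8.83 at RH, 8.70, 9.08 and 8.91 at GC, and 8.84, 8.84 and 8.36 at OC. The change to RH was 3.91 ± 0.17 (adjusted p = 1.4e-12), and the values of RH, GC and OC overlapped.

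Root hair markers moved in the same step. Of the 6 markers 5 were called up from RP to RH, among them the expansin gene EXPA7, with means of 3.98 at RP and 8.18 at RH, and EXPA18, with 3.64 and 8.51. All 6 markers were at or above the floor from RP onward. RSL4, a transcription factor that drives root hair growth, is both in this list and among the regulators, and rose by 2.45 ± 0.20 (adjusted p = 1.9e-08). The summed root hair level went from 10.04 to 10.28 at GC to 9.13 to 9.58 at OC, and the part of root hair cells in the peroxidase values was not tested.

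AT1G34510 rose with this group, by 2.42 ± 0.27 (adjusted p = 9.7e-07), and was the only peroxidase called down from GC to OC. It read 5.50, 5.69 and 6.06 at GC and 4.62, 5.33 and 3.59 at OC, a change of −1.24 ± 0.27 (adjusted p = 0.001). This call rested on OC replicate 3, without which the change was −0.78. Without GC replicate 1 or OC replicate 1 the count of falls was 3, and without OC replicate 2 it was 2.

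Other genes rose at RH and again at OC. AT3G32980 read 2.83, 3.93 and 3.11 in DS, 2.75, 2.67 and 3.04 at 6H, 3.38, 3.47 and 3.16 at TR, and 5.0, 4.40 and 4.86 at RP. Its values were 7.41, 7.22 and 6.97 at RH, 7.77, 7.56 and 7.41 at GC, and 9.33, 9.39 and 9.23 at OC. It thus rose in the steps to RP, RH and OC, with called changes of 1.42, 2.44 and 1.74.

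AT3G21770 rose in 4 steps, to TR, RH, GC and OC. It read 2.97, 4.24 and 3.50 in DS, 3.05, 3.06 and 2.84 at 6H, 4.15, 4.67 and 4.30 at TR, and 3.84, 3.92 and 4.33 at RP. Its values were 6.74, 6.96 and 6.86 at RH, 8.14, 8.33 and 8.28 at GC, and 9.38, 9.61 and 9.22 at OC. Its changes were 1.39 to TR, 2.83 to RH, 1.39 to GC and 1.16 to OC, and its values at TR and RP overlapped.

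AT4G11290 stayed below the floor in 10 of the 12 arrays up to RP. It read 2.96, 3.56 and 2.82 in DS, 2.34, 2.38 and 2.59 at 6H, 3.01, 2.59 and 2.88 at TR, and 2.91, 3.50 and 2.77 at RP. It reached 6.51, 6.05 and 6.54 at RH, 7.36, 7.50 and 7.58 at GC, and 8.58, 8.81 and 8.33 at OC. The change to RH was 3.30 ± 0.20 (adjusted p = 2.6e-10), and the later stages did not overlap.

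From RH to GC 12 of 58 genes were called up, against 2.6% of all loci, and 1, AT5G51890, was called down, against 0.972%. The largest rise was that of AT1G14550, by 2.72 ± 0.16 (adjusted p = 1.6e-09). Its mean was 4.80 at RP, 3.81 at RH and 6.54 at GC, and the difference between RP and RH, −0.98, missed the fold limit.

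PER64 (AT5G42180) and AT5G66390, with the synonym PRX72, are peroxidases that polymerise the lignin of the Casparian strip, the barrier in the endodermal wall. PER64 read 3.0, 2.96 and 2.73 in DS, 2.60, 2.86 and 2.85 at 6H, 2.84, 2.53 and 2.81 at TR, and 2.66, 2.94 and 2.45 at RP. It then read 4.40, 3.96 and 4.15 at RH, 6.55, 6.21 and 6.25 at GC, and 7.89, 7.94 and 7.79 at OC. All 12 arrays up to RP were below the floor, and the stages after it did not overlap. PER64 rose by 1.49 ± 0.15 to RH (adjusted p = 2.1e-07), by 2.17 ± 0.15 to GC (adjusted p = 6.1e-09) and by 1.54 ± 0.15 to OC (adjusted p = 7.5e-08).

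AT5G66390 rose in the same 3 steps, by 1.82 ± 0.19, 2.27 ± 0.19 and 1.39 ± 0.19, from a mean of 2.67 at RP to 8.15 at OC. AT1G44970 did too, by 1.59 ± 0.17, 1.76 ± 0.17 and 1.07 ± 0.17, from 2.56 to 6.98. AT3G21770 and AT4G11290, given above, were also called up in these 3 steps, so the pattern was not particular to PER64, AT5G66390 and AT1G44970. The rise of AT4G11290 to GC came to 0.96 without RH replicate 2, and that to OC to 0.98 without OC replicate 2. The genes of the Casparian strip scaffold rose over the same steps. CASP1 had means of 3.94 at RP, 5.72 at RH, 8.42 at GC and 9.53 at OC, and CASP5 had 2.98, 4.49, 6.63 and 8.59. Of the 7 endodermis markers, 5 were called up to RH, 6 to GC and 5 to OC. The summed endodermis level was 6.14 to 6.31 at RP, 7.44 to 7.57 at RH, 9.63 to 9.78 at GC and 10.88 to 11.06 at OC, and the part of more endodermal cells in the peroxidase values was not tested.

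AT5G51890 had a profile of its own among the 58 genes, with a called fall at GC between called rises at RH and OC. It read 4.28, 4.19 and 4.39 in DS, 3.14, 3.19 and 3.04 at 6H, 2.55, 2.97 and 2.71 at TR, and 4.79, 4.72 and 4.94 at RP. Its values were 5.71, 6.57 and 6.90 at RH, 4.11, 4.56 and 5.14 at GC, and 6.80, 7.02 and 6.58 at OC. The RH and GC arrays did not overlap, although RH replicate 1, at 5.71, lay near GC replicate 3, at 5.14. The changes were 1.58 ± 0.24 to RH (adjusted p = 6.2e-05), −1.79 ± 0.24 to GC (adjusted p = 2.8e-05) and 2.20 ± 0.24 to OC (adjusted p = 6e-07).

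The 3 laccases that fell in that step dipped alike. IRX12, also named LAC4, LAC11 and LAC17 are the laccases known for polymerising lignin in the vasculature. IRX12 went from 6.37 at RH to 4.81 at GC, a change of −1.57 ± 0.20 (adjusted p = 1.8e-05), and to 7.41 at OC. LAC11 changed by −1.73 ± 0.25 (adjusted p = 5.5e-05) and LAC17 by −1.42 ± 0.18 (adjusted p = 1.7e-05). At OC their means were 5.89 and 6.58. XCP1, a protease of xylem vessels, had means of 4.88 at RH, 3.90 at GC and 5.60 at OC, with a GC difference of −0.98 that missed the fold limit. Among the other xylem markers, IRX3 had means of 3.74, 3.70 and 5.09 at these stages and XCP2 had 3.58, 3.26 and 3.99, neither called at GC. The summed level of the 5 xylem markers, which include IRX12, ran from 6.95 to 7.37 at RH, from 5.99 to 6.39 at GC and from 7.90 to 8.26 at OC. VND7 was below the floor at every stage. The part of xylem cells in the dip was not tested, and these genes were set beside AT5G51890 after their values were seen.

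**Figure D4:**
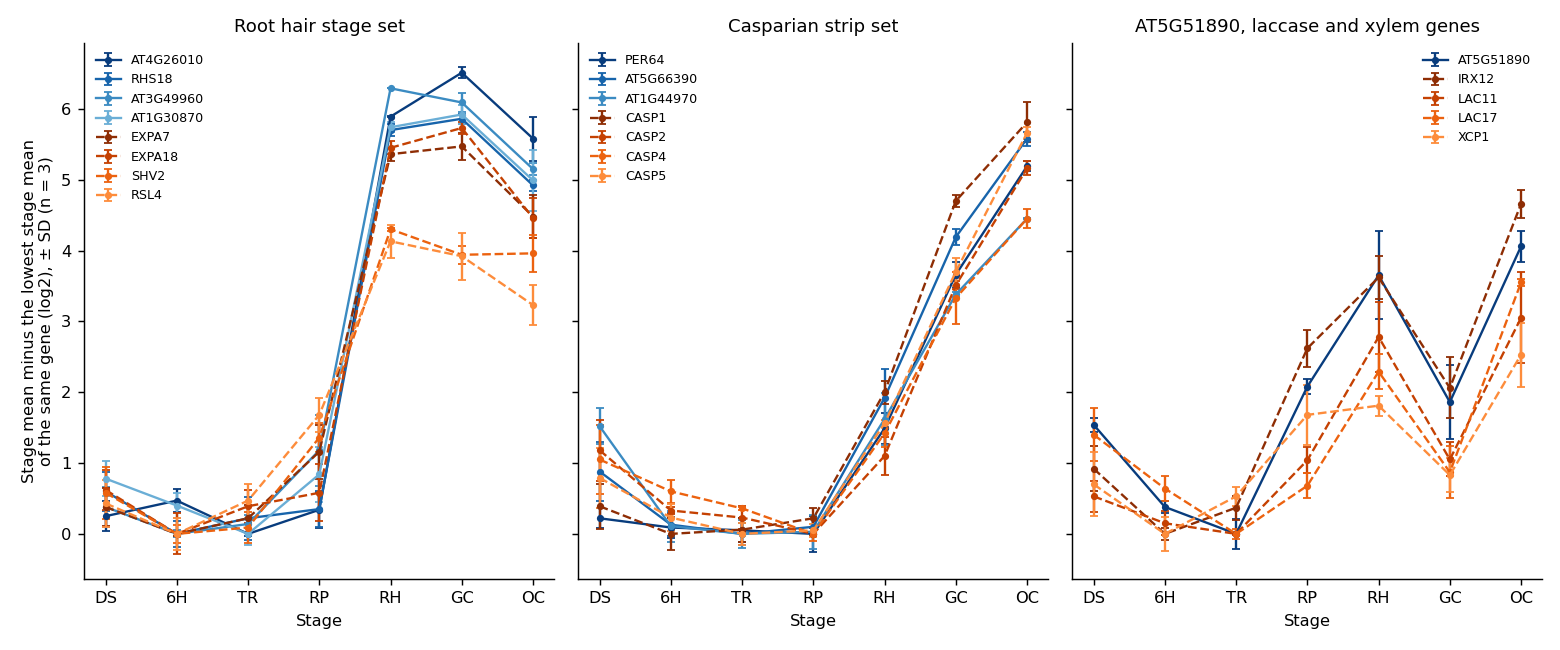
Stage means with SD (n = 3) of peroxidase genes (blue, solid) beside genes of the marker and laccase lists (orange, dashed), each as the log2 difference from its own lowest stage mean. Left, 4 peroxidases and 4 root hair genes go up between RP and RH. Middle, 3 peroxidases and 4 Casparian strip genes (CASP1, CASP2, CASP4 and CASP5) go up from RP to OC. Right, AT5G51890, IRX12, LAC11, LAC17 and XCP1 are lower at GC than at RH and OC.

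The opening of the cotyledons was the step with the most called rises. From GC to OC 24 of 58 genes were called up, against 5.41% of all loci, and 1 was called down, against 3.02%. With arrays centred on the median of all genes the counts were 24 and 4. The median change was 0.45 over the peroxidases and −0.03 over all loci. Of the 36 genes highest at OC, 21 stood at least 1 above their next highest stage. The same share over all loci highest at OC is not given here.

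Some genes had no stage mean above 3.47 until this step. AT1G49570 rose by 3.98 ± 0.18 (adjusted p = 1.6e-12), from a mean of 3.47 at GC to 7.45 at OC. AT5G19890 rose by 3.45 ± 0.16 (adjusted p = 2.9e-12), from 2.93 to 6.39. AT5G15180 and AT2G35380 were like these, with means of 3.04 and 2.91 at GC and of 5.95 and 5.74 at OC.

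AT4G33420, one of the genes that fell at 6H, rose by 3.09 ± 0.13 (adjusted p = 4.5e-13) to 7.62 ± 0.16 (SD, n = 3). PRXCB (AT3G49120), known as a source of hydrogen peroxide in the apoplast during defence and for its effect on root length, rose by 3.03 ± 0.15 (adjusted p = 6.7e-12) from 4.96 ± 0.18 to 7.99 ± 0.11. Its close relative PRXCA (AT3G49110), with which it is known to act in the oxidative burst, had stage means between 2.14 and 2.73 throughout, all below the floor. AT2G41480, with the synonym PRX25 and a known role in stem lignin, rose by 1.20 ± 0.19 (adjusted p = 6e-05) but only to 4.05. That rise came to 0.95 after a further quantile normalization.

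The summed level of 5 mesophyll markers was 12.28 to 12.38 at GC and 12.64 to 12.77 at OC. Of the 5, 2 were called up, whereas CAB1 had means of 11.32 at GC and 11.35 at OC. The sum had gone up in each earlier step too, and lay between 11.82 and 11.85 at RH. The endodermis and xylem markers also went up, as given above. Which organ carried the peroxidase transcripts was not tested, since roots, hypocotyls and cotyledons were extracted together.

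The 10 genes without a called rise fall in 2 kinds. AT3G50990, AT4G36430 and AT5G06730 passed the F test, and AT4G36430 gained 0.72 at GC and 0.94 at OC, both short of the fold limit. The other 7, AT1G24110, AT3G03670, PRXCA, AT4G17690, PA2 (AT5G06720), AT5G47000 and AT5G58390, had ranges between 0.57 and 0.97. Of these, AT1G24110, AT3G03670, PRXCA and PA2 were below the floor at every stage. A dim probe set does not show that a transcript is absent.

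Peroxidase genes that lie next to each other in the TAIR10.1 gene table differed in how alike their profiles were. Of 8 adjacent pairs of listed genes 6 were measured, and 4 of these shared the stage of their highest mean, as did 42.3% of all 1653 pairs of the 58 genes. Over the 7 stage means, r was 0.98 for AT2G38380 and AT2G38390, 0.98 for AT5G19880 and AT5G19890, and 0.94 for AT4G37520 and AT4G37530. It was 0.81 for AT5G64110 and AT5G64120, 0.78 for AT5G64100 and AT5G64110, and 0.67 for PA2 and AT5G06730. Over all pairs of the 58 genes the median r was 0.62, and these values are a description over 7 stages only. In 4 further pairs 1 gene is a listed member and the other is not. There r was 0.74 for AT1G14550 and PER4 (AT1G14540), which were both highest at GC, and 0.65 for AT2G18140 and AT2G18150. It was −0.1 for Prx37 and AT4G08780 and −0.38 for AT5G58390 and AT5G58400, and these 3 pairs did not share the stage of the highest mean. Neighbouring copies may also share probe signal, which was not tested.

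Within pairs, calls could fall in different steps. AT2G38380 was called up by 2.08 from RH to GC and by 2.59 from GC to OC, and AT2G38390 by 2.41 from GC to OC, after a change of 0.90 that was not called. From 6H to TR the change was 2.12 ± 0.22 for AT4G37530, which was called, and 0.54 ± 0.15 for AT4G37520, which was not. AT4G37520 rose by 1.36 ± 0.15 one step later (adjusted p = 1.7e-06, limma). The differences between neighbours were not tested.

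Of 13 further genes of the family that were not among the 60, RHS19 (AT5G67400) and PER4 had the largest called rises. RHS19 rose by 5.58 ± 0.17 from RP to RH (adjusted p = 6.9e-15) to a mean of 10.46, in the step of RHS18. PER4 rose by 4.65 ± 0.17 from 6H to TR (adjusted p = 6e-14) and had its highest mean at GC. AT1G77100 was a seed transcript, with means of 5.80 in DS and 6.02 at 6H, and fell by 3.05 ± 0.18 at TR (adjusted p = 2.7e-11). AT4G31760 fell by 1.88 ± 0.16 from GC to OC (adjusted p = 2.1e-08), after a highest mean of 6.29 at TR. In the 6 steps in order, 0, 3, 1, 1, 2 and 0 of the 13 were called up and 1, 1, 1, 1, 0 and 1 down. Where none was called, limma's unadjusted p under 0.05 gave 0 higher at 6H, 2 higher at OC and 0 lower at GC. Of the 13 genes 9 passed the F test. Their highest mean lay at DS, GC and OC for 2 genes each, and at 6H, TR and RP for 1 each.

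NADPH oxidases of the RBOH family make the superoxide from which the apoplast's hydrogen peroxide derives, the substrate of the peroxidases. Of 10 genes, between 1 and 2 were called up in each step. The largest rises were those of RBOH F (AT1G64060), known for its role in Casparian strip lignin, by 2.04 ± 0.13 from 6H to TR (adjusted p = 1e-10), and of RHD2, the oxidase of growing root hairs, by 1.98 ± 0.19 from TR to RP (adjusted p = 4.4e-07). RHD2 went on from 5.35 at RP to 6.37 at RH. RBOHA fell by 1.89 ± 0.17 from DS to 6H (adjusted p = 8.1e-09) and AT1G19230 fell by 1.63 ± 0.13 from 6H to TR (adjusted p = 3.6e-09).

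Laccases oxidise monolignols with oxygen in place of hydrogen peroxide. Of 17 genes, 1, 2, 3, 5, 2 and 9 were called up in the 6 steps, and the 3 dipping genes at GC were the only ones called down. LAC8 rose by 5.29 ± 0.24 from DS to 6H (adjusted p = 3.2e-13), a step in which few peroxidases rose. LAC7 rose by 5.82 ± 0.22 from RP to RH (adjusted p = 1.3e-13), from 4.41 to 10.23.

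Monolignol synthesis supplies the phenolic substrates, and 9 of its 15 genes were called up from RP to RH. PAL1, the entry enzyme of the pathway, rose by 3.31 ± 0.16 in that step (adjusted p = 4.4e-12). OMT1 rose by 3.34 ± 0.18 from DS to 6H (adjusted p = 6.8e-12). PAL4 fell by 2.26 ± 0.20 from DS to 6H (adjusted p = 5.5e-09) and fell by 1.67 ± 0.20 from 6H to TR (adjusted p = 6.7e-07). In the 6 steps 1, 3, 6, 9, 0 and 3 genes were called up, and 4, 1, 0, 0, 0 and 0 down. The 4 falls from DS to 6H were 26.7% of the list, against 10.7% of all loci. From RH to GC limma's unadjusted p under 0.05 gave 12 higher. In the steps without a called fall it gave 1 lower, at RH.

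The class I ascorbate peroxidases remove hydrogen peroxide inside the cell. Of 8 genes listed under this name, whose activity was not examined, 3 were called up and 4 down from DS to 6H. In the later steps 2, 2, 1, 0 and 1 were called up, and 1 was called down, at RH. In the step to GC, where none was called, limma's unadjusted p under 0.05 gave 2 higher and 2 lower. APX1 rose by 2.03 ± 0.19 from DS to 6H (adjusted p = 1e-08) and by 2.42 ± 0.19 from 6H to TR (adjusted p = 1.7e-09). Its mean went from 5.07 in DS to 9.53 at TR. APX5 fell by 1.58 ± 0.15 from RP to RH (adjusted p = 9.9e-08) and TL29 fell from 5.57 in DS to 4.07 at 6H (SE of the change 0.11, adjusted p = 3.3e-10).

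Of 4 transcription factors known to act on peroxidase genes, UPB1, a repressor of peroxidase genes in the root elongation zone, rose most, by 2.52 ± 0.17 from RP to RH (adjusted p = 7.8e-10) to 7.30, in the step in which 20 peroxidase genes rose. RSL4 rose in the same step, as given above. MYB36, which switches on Casparian strip genes, had means of 3.57 at RP, 4.55 at RH, 5.45 at GC and 6.07 at OC, and none of its single steps was called. AT5G47390, with the synonym KUA1, a repressor of peroxidase genes in leaves, had stage means between 6.61 and 7.64 and no called step.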

How the data were processed

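The deposited table holds log2 expression values of 35986 probe sets on 21 arrays, and the authors made them with RMA, per the submitters' processing notes. RMA includes a background correction and a quantile normalization between arrays, so a change that affects most transcripts at once is partly removed. The array platform, its annotation release and the genome build are not given in the sources used here. Array medians lay between 4.74 and 5.33.

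Probe sets were averaged per locus, after 215 probe sets with identical values at different loci were left out, which left 27789 loci. Of the measured members, 5 had 2 probe sets, which agreed on the stage of the highest mean. Names came from a RefSeq gene table of the TAIR10.1 assembly, by symbol or synonym.

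A single limma fit (version 3.58.1, R 4.3.3) gave each stage a mean, with 14 residual degrees of freedom and no covariates, and 6 contrasts of consecutive stages, later minus earlier. Tests were 2-sided, and p-values were adjusted by the Benjamini-Hochberg method over all loci of a contrast. The script was tested on simulated data. The number of arrays limits the precision, and all stages share 1 estimate of the spread. Named with every array value were the 4 members with the largest range in each group by stage of the highest mean, and with their test the 4 largest rises and falls per step. Of each other list, the 2 largest called rises and falls were named. PER64 and AT5G51890 were given with every array value, and AT1G34510 and AT5G64120 with those of some stages, after their values were seen. The members and lists were chosen with earlier results of these data known. Alternatives were a further quantile normalization, 2 centrings, a filter on dim genes, another choice of probe set, the replicate number as a block, and each array left out. Sequences, protein identity and promoter motifs were not analysed here.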

Additional observations from a re-analysis of the deposited data

How the results depend on the processing

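No named change of a member or listed gene reversed in sign under 6 alternative settings or with any of the 21 arrays left out. These changes were chosen for being called, so a reversal was unlikely from the start. Under the 6 alternatives 36 of 1410 checks no longer met the call. With arrays left out, 36 of 4935 checks no longer met it. The dim-gene filter, the brighter probe set and the replicate block changed no count. Deviations from the stage means had a median r of 0.01 over 63 pairs of same-numbered arrays of different stages. For arrays with different numbers it was −0.01 over 126 pairs. Such values cannot show whether same-numbered samples came from the same seed. The fit with the replicate number as a block gave 51 changed genes, 4 up and 6 down from DS to 6H and 24 up and 1 down from GC to OC. The median change over all loci from DS to 6H was −0.23 as deposited, −0.60 with arrays centred on all genes, −0.47 with reference genes and −0.03 after a further quantile normalization. From 6H to TR it was 0.01 as deposited and −0.40 with reference genes. Centring on all genes gave 2 genes up and 18 down from DS to 6H, 2 down from RP to RH and 4 down from GC to OC, with 4 highest at DS, 1 at 6H, 1 at TR and 4 at RH. Centring on reference genes gave 2 up and 13 down from DS to 6H, with 10 highest at DS, 1 at 6H and 4 at RH. Further quantile normalization gave 2 down from RP to RH and 2 highest at DS. The cause of these shifts was not tested.

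With each array left out in turn, 51 to 53 genes changed over the 7 stages. In step order, 3 to 5, 11 to 11, 11 to 13, 20 to 20, 12 to 13 and 23 to 25 were called up, and 6 to 8, 0 to 0, 1 to 1, 1 to 2, 1 to 1 and 0 to 3 down. The highest mean lay at DS for 1 to 3 genes, 6H 0 to 1, TR 1 to 2, RP 0 to 1, RH 1 to 3, GC 8 to 10 and OC 36 to 38. The count of falls from RP to RH was 2 without RH replicate 1, RP replicate 1 or RP replicate 2. The count highest at RH was 1 without OC replicate 3, and that at TR 1 without 6H replicate 3 or TR replicate 3. With 3 arrays per stage, levels under 3.47 have little signal over background, and changes between dim levels are not resolved.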
